A study of Homo sapiens with 42 samples.

Results

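Open chromatin was compared between untreated MV411 cells, a line labelled acute myeloid leukemia, and untreated 22RV1 cells, a line labelled prostate adenocarcinoma. ATAC-seq, which uses a transposase to cut and tag accessible DNA, gave 1 peak list for each of 6 samples: 3 biological replicates of MV411 and 3 of 22RV1. All 6 had been kept in DMSO, the solvent control, for 4 h, and both lines are labelled as wild type in genotype. The members are the regions of 500 bp that had a peak in all 3 samples of the one line and in none of the other. Among 771804 regions with a peak in any of the 6 samples, 61216 (7.93%) were MV411-only and 33336 (4.32%) were 22RV1-only. A further 26872 regions (3.48%) had a peak in all 6 samples. The whole series holds 42 samples: 7 cancer cell lines, each with DMSO or with FHT-1015, an inhibitor of the ATPases SMARCA4 and SMARCA2 of the BAF remodelling complex. Each tissue is represented here by 1 established line, so a difference between the lines is not a difference between tissues in general.

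Cells of different tissues carry the same genome and differ in which enhancers and promoters are open. In myeloid cells the ETS factor PU.1, made from SPI1, opens and holds enhancers together with RUNX1 and the C/EBP factors. In luminal prostate cells the forkhead factor FOXA1 opens chromatin at enhancers that HOXB13 also binds, while ELF3 and the grainyhead-like factors serve epithelial enhancers. Promoters of genes that every cell uses are open in most cell types, so differences between tissues lie mostly at distal sites.

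The lists held 200316, 191397 and 279968 peaks in MV411 replicates 1 to 3 and 331713, 297640 and 240484 in 22RV1 replicates 1 to 3. They hold no read counts, so the depth is unknown. The strict peaks of each list, with −log10 q at 5 or above, numbered 121774, 111063 and 105420 in MV411 and 58095, 79003 and 66459 in 22RV1. The lines did not overlap, and the mean of MV411 was 0.742 higher on the log2 scale (exact permutation test, two-sided, p = 0.1, the smallest that 3 against 3 samples allow). With all deposited peaks the direction turned, to a log2 difference of -0.382 (exact p = 0.2). Peaks of both lines carry the word small in their names, and median widths were 240, 239 and 232 bp in MV411 and 195, 202 and 205 bp in 22RV1. The share of called regions in common was 0.418 to 0.526 between MV411 replicates, 0.227 to 0.259 between 22RV1 replicates and 0.116 to 0.130 between lines. With strict peaks the same shares were 0.632 to 0.642, 0.522 to 0.561 and 0.162 to 0.175. The pileup at a typical background position, recovered from the deposited values, was 0.454 ± 0.0487 (SD, n = 3) in MV411 and 0.633 ± 0.0892 in 22RV1, and its part in the difference was not tested.

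Promoter sequences are shown for the genes whose start lay in the strongest line-only regions. The region had a peak in the one line and none in the other, but the peak need not cover the start. Sequences are RefSeq, GRCh38.p14, 250 bases before to 50 after the start, written 5′ to 3′ on the gene's strand. In MV411 these were an internal start of GCA (chr2:162344118-162344417, plus strand), SLCO4C1 (chr5:102296235-102296534, minus strand) and RGS1 (chr1:192575523-192575822, plus strand). Capitals mark the letters of the PU.1 core GAGGAA, the RUNX core TGTGGT or the C/EBP core TTGCNNAA on either strand.
GCA: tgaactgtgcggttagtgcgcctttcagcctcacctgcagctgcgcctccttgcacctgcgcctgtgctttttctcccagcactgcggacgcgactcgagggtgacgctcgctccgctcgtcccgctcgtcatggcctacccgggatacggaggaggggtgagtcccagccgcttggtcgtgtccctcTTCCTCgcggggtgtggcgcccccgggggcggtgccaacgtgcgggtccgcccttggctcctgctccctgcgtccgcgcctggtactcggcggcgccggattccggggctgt
SLCO4C1: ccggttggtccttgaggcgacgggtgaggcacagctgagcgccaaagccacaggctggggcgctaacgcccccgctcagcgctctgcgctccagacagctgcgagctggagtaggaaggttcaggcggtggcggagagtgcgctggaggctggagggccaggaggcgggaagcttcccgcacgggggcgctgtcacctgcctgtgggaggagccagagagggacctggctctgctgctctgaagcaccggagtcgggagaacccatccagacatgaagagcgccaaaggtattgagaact
RGS1: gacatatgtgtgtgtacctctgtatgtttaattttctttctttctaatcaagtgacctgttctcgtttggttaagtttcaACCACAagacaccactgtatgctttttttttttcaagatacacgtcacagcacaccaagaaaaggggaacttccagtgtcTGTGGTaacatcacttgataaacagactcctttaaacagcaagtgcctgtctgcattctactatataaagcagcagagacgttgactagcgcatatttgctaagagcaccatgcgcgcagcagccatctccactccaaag
GCA encodes grancalcin, a calcium-binding protein of neutrophils and macrophages, and its window held 1 PU.1 core. RGS1 encodes a regulator of G protein signalling in leukocytes, and its window held 2 RUNX cores. The window of SLCO4C1, which encodes an organic anion transporter, held none of the 3 cores. In 22RV1 the genes were CAPN13 (chr2:30807397-30807696, minus strand), an internal start of NRXN3 (chr14:79279130-79279429, plus strand) and TRPV6 (chr7:142885696-142885995, minus strand). Here capitals mark the forkhead core TNTTTAC, the grainyhead core AACNNGTT or the HOXB13 core CAATAAA on either strand.
CAPN13: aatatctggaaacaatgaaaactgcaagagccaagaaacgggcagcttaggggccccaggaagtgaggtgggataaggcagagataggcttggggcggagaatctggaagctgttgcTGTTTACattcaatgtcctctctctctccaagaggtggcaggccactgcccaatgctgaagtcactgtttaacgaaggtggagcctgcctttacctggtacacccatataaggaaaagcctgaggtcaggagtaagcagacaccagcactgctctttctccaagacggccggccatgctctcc
NRXN3: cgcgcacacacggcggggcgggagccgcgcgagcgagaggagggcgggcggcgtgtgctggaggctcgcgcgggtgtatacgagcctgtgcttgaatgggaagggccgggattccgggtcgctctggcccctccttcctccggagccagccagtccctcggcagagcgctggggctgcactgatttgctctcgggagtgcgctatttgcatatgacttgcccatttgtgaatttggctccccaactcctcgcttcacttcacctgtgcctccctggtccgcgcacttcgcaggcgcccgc
TRPV6: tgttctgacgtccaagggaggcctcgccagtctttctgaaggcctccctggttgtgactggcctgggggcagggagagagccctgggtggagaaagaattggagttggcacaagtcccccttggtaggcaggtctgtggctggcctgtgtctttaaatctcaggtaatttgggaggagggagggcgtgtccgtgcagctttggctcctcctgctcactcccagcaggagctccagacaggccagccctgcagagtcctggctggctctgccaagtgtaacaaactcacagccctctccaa
CAPN13 encodes a calpain protease, and its window held 1 forkhead core. The windows of TRPV6, which encodes an epithelial calcium channel, and of NRXN3, a neurexin gene, held none of the 3 cores. Such matches are letters in a window and do not show that a factor was bound.

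The peaks of the regions that hold these starts were among the strongest of each list. The fold is the authors' deposited ratio of pileup to background, read here as having 1 added to each. The fold was 28.5, 29.6 and 29.7 at GCA, 31.9, 27.1 and 30.8 at SLCO4C1 and 29.8, 28.8 and 26.3 at RGS1 in the 3 MV411 samples, with no peak in 22RV1. At CAPN13 it was 35.7, 41.9 and 39.3, at NRXN3 28.6, 29.9 and 31.1 and at TRPV6 28.1, 34.5 and 31.3 in the 3 22RV1 samples, with no peak in MV411. Absence from the other line did not mean absence elsewhere. In the DMSO samples of the 5 other lines, a line counted when at least 2 of its 3 samples had a peak. The region of the GCA start was open in 4 lines, that of SLCO4C1 in 2 and that of RGS1 in 0. The region of the CAPN13 start was open in 1 other line, and those of NRXN3 and TRPV6 in 3 each.

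Line-only regions lay farther from gene ends than regions open in all 6 samples. Of MV411-only regions 2.71% lay within 1 kb of an end of a protein-coding gene, of 22RV1-only regions 8.77%, and of regions open in all 6 samples 40.8%, beside 4.74% of all regions. The median distance to the nearest gene end was 47.6 kb, 41.3 kb and 4.74 kb for the 3 classes and 50.7 kb for all regions. Beside all regions, MV411-only regions were thus less often and 22RV1-only regions more often within 1 kb of a gene end, and both had a shorter median distance. Of MV411-only regions 47.3% lay inside a gene, of 22RV1-only regions 48.2%, and of regions open in all 6 samples 42%, beside 46.5% of all regions. The 10000 strongest peaks of each list gave the same order without the rule: 32.5%, 31.1% and 31.3% lay within 1 kb of a gene end in MV411 and 49.6%, 49.5% and 50% in 22RV1. The lines did not overlap, and the difference was -18.1 percentage points (exact permutation test, two-sided, p = 0.1, the smallest possible here). Over all deposited peaks the difference was -0.481 points (exact p = 0.8).

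**Figure D1:**
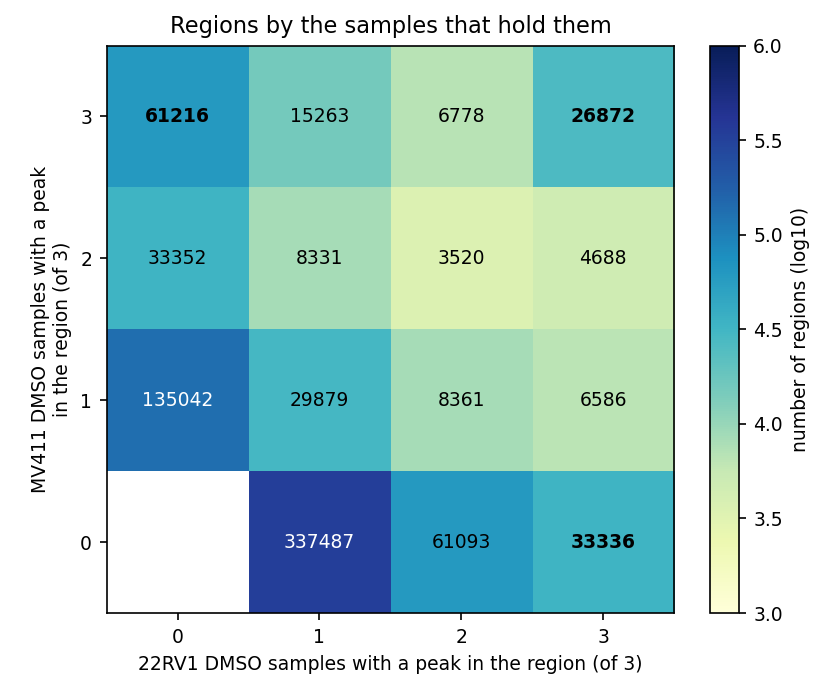
Number of regions by how many of the 3 MV411 samples (vertical) and how many of the 3 22RV1 samples (horizontal) had a peak in them, with the colour on a log10 scale. The corners are the 61216 MV411-only, 33336 22RV1-only and 26872 shared regions, and the largest cell is the 337487 regions with a peak in 1 22RV1 sample and no other.

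Most regions were not repeated: 337487 had a peak in 1 22RV1 sample only and 135042 in 1 MV411 sample only. The counts of line-only regions moved with the length of the lists. With strict peaks they were 49614 and 16203, so that MV411-only regions rose from 64.7% to 75.4% of both together. With the 50000 strongest peaks of every list they were 22011 and 16309, or 57.4%. With pileups drawn down to a common background of 0.2 they were 39330 and 8538, or 82.2%. That alternative also kept only peaks with −log10 p at 5 or above, where the deposited lists start near 2.0. The parts of background and cutoff in it were not tested. MV411-only regions were the more numerous in all 13 alternatives run. Leaving out 22RV1 replicate 1, 2 or 3 raised the 22RV1-only count to 52517, 50723 and 58433. In their own samples the median fold of MV411-only peaks was 8.88, 8.19 and 7.92 and that of 22RV1-only peaks 5.29, 6.61 and 5.92. Peaks of regions open in all 6 samples had median folds of 12.5, 11.7 and 11.4 in MV411 and 8.81, 11.6 and 10.7 in 22RV1, above those of the line-only regions in each sample.

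The FHT-1015 samples of both lines had no part in the choice of regions and were used as further samples of each line. MV411-only regions had a peak in 48.8% ± 0.460 (SD, n = 3) of cases in MV411 with FHT-1015 and in 8.09% ± 1.65 in 22RV1 with FHT-1015. 22RV1-only regions had one in 43.5% ± 1.40 in 22RV1 and 6.27% ± 0.153 in MV411. Of all regions, 14.2% to 14.7% had a peak in the MV411 samples with FHT-1015 and 16.3% to 19.8% in those of 22RV1. The samples of the lines did not overlap in either class (exact permutation test, two-sided, p = 0.1, the smallest possible). Regions open in all 6 DMSO samples had a peak in 90.6% ± 0.171 and 88.7% ± 0.495 of cases in MV411 and 22RV1 with FHT-1015, a difference of 1.9 percentage points with the same p. A peak was missing from all 3 FHT-1015 samples of the own line at 29.1% of MV411-only and 31.8% of 22RV1-only regions, against 3.06% and 3.72% of shared regions. Line-only regions also had the weaker peaks, as given above, and the part of peak strength in this was not tested.

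**Figure D2:**
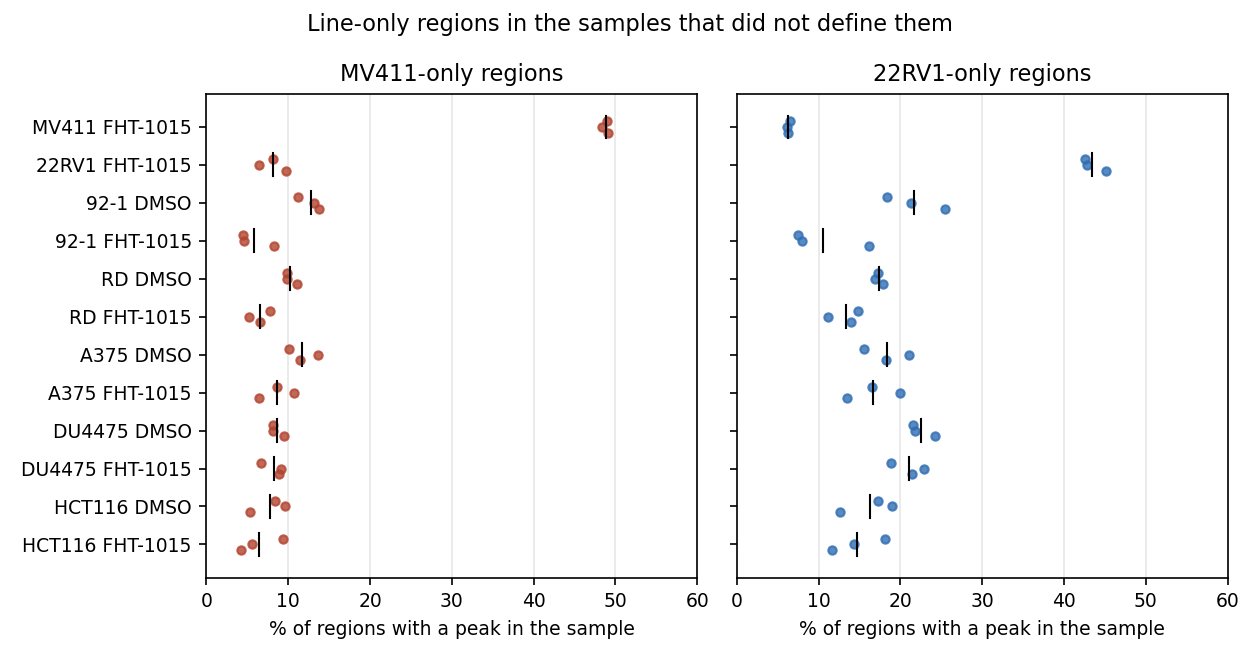
Percent of MV411-only regions (left) and 22RV1-only regions (right) that had a peak in each of the 36 samples outside the 6 that define them. Each point is 1 sample and each black bar the mean of 3. Samples of the own line with FHT-1015 sit at 48.3 to 49.1% and 42.5 to 45.1%, above every sample of another line.

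Line-only regions were open in the other 5 lines less often than regions open in all 6 samples. In their DMSO samples 76.9% of MV411-only and 56.5% of 22RV1-only regions were open in none of the 5, against 5.10% of regions open in all 6 samples. By line, MV411-only regions were open in 4.14% (HCT116, colon carcinoma) to 9.96% (A375, melanoma) of cases. 22RV1-only regions were open in 11.8% (HCT116) to 20% (DU4475, a breast carcinoma line). Among the 15 DMSO samples of these lines, 12.6% to 25.5% of 22RV1-only regions had a peak, against 7.86% to 17.2% of all regions, and the former share was the higher in all 15. MV411-only regions had a peak in 5.31% to 13.8% of cases, above all regions in 2 of the 15 samples. At gene ends the picture changed for 22RV1: of its 2922 line-only regions within 1 kb of a gene end 20.7% were open in none of the other lines, while 61.7% of the 1661 such MV411-only regions were. Thus most 22RV1-only gene ends were open in at least 1 other line and had no peak in MV411.

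The marker genes named for the lines behaved unequally. SPI1 had 1 MV411-only and no 22RV1-only region. That region lay outside the gene, 12.7 kb beyond its end of higher coordinate (chr11:47390995-47391494), with folds of 11.6, 10.1 and 11.2 in MV411. It had a peak in 3 of 3 MV411 samples with FHT-1015 and 1 of 3 of 22RV1. The gene end itself (chr11:47378310-47378809) ranked at percentiles 85.92, 79.75 and 91.61 of the MV411 lists, where a percentile is the rank of a peak's −log10 p in its own list. It was not MV411-only because 22RV1 replicate 1 had a peak at percentile 52.21 and replicate 3 one at 0.0954. At the opposite end of SPI1, 22RV1 had peaks at percentiles 92.22, 87.43 and 93.55, where MV411 had 1 peak in replicate 2. With strict peaks SPI1 had 4 MV411-only and 2 22RV1-only regions.

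FOXA1 did not separate the lines in the direction of its label. The region at its start (chr14:37594891-37595390) had a peak in all 6 samples, at percentiles 82.79, 76.17 and 86.6 in MV411 and 82.47, 81.57 and 76.76 in 22RV1. No region nearest to FOXA1 was 22RV1-only. The region at its other end (chr14:37589234-37589733) was MV411-only, with folds of 13.8, 11.5 and 14.2, and had no peak in the FHT-1015 samples of either line. A region just beyond that one (chr14:37588207-37588706) had a peak in 22RV1 replicates 2 and 3 only. HOXB13 had no line-only region, and the number of regions nearest to it was 0, 2 and 1 in MV411 and 5, 2 and 4 in 22RV1. An open promoter is not a measure of expression, which was not measured in these samples.

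**Figure D3:**
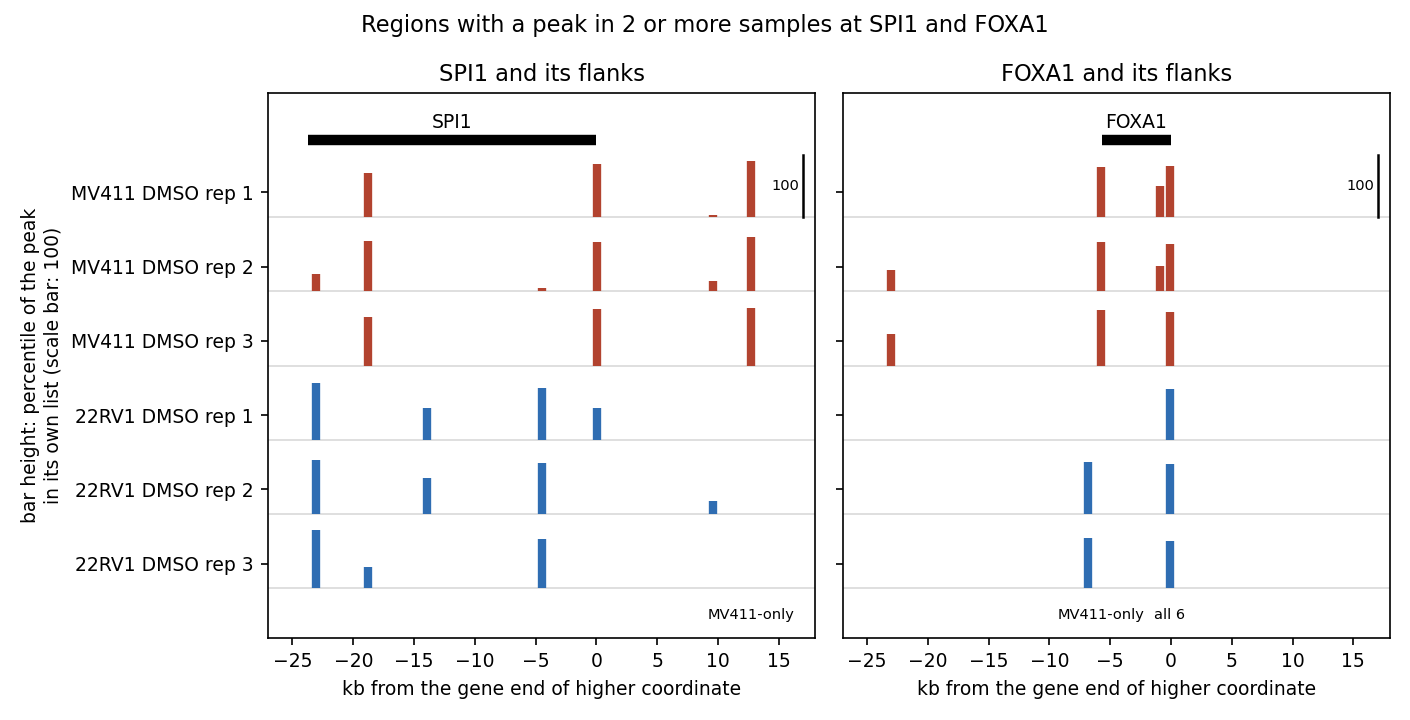
Peaks at SPI1 (left) and FOXA1 (right) in the 6 samples, for regions with a peak in 2 or more of them. Horizontal, distance in kb from the gene end of higher coordinate; bar height, percentile of the peak within its list. The MV411-only region beyond SPI1 and the FOXA1 start with a peak in all 6 samples are marked.

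Regions were given to the nearest protein-coding gene within 100 kb. A gene is called MV411-sided when it had more MV411-only than 22RV1-only regions, and 22RV1-sided in the reverse case. Of all 19974 genes 8352 (41.8%) were MV411-sided and 3975 (19.9%) were 22RV1-sided, and each list is read against these shares. Of all genes 6096 had no line-only region and count to neither side, so a list with few such genes can exceed both shares. There were 0 such genes among myeloid transcription factors, 3 among myeloid surface and effector genes and 2 among genes shared by white blood cells. Of 24 myeloid transcription factor genes 20 (83.3%) were MV411-sided and 2 were 22RV1-sided, with a median of 6 MV411-only and 2.5 22RV1-only regions a gene against 1 and 0 over all genes. Of 28 myeloid surface and effector genes 24 (85.7%) were MV411-sided and none was 22RV1-sided. Of 22 genes shared by white blood cells 17 (77.3%) were MV411-sided and 1 was 22RV1-sided. Of 10 MHC class II genes 6 were MV411-sided and none was 22RV1-sided. With strict peaks the counts were 23, 26, 18 and 4 MV411-sided genes, beside 43.5% of all genes, so that the MHC class II share (40%) was no longer above that of all genes. With the 50000 strongest peaks of each list they were 12, 14, 10 and 3, beside 22.6% of all genes.

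Among the factors, MEIS1, a homeobox cofactor of leukaemic stem cells, had 15 MV411-only and 8 22RV1-only regions. RUNX1, a master regulator of blood cells, had 13 and 4, although the number of regions with any peak nearest to RUNX1 was 30, 34 and 38 in MV411 and 53, 48 and 40 in 22RV1. For RUNX1 the 50000 strongest peaks gave 1 region of each kind. ETV6 had 12 and 10, so that factor barely leaned to MV411. FLI1, an ETS factor of blood and endothelium, had 12 and 3, and its strongest MV411-only region (chr11:128734369-128734868, inside the gene) had folds of 26.6, 23.6 and 20.3. MEF2C, a MADS-box factor, had 12 and 6, with folds of 23.8, 21.8 and 19.9 at its strongest region. MYB, which drives proliferation of blood progenitors, had 12 and 3, with folds of 21.1, 16.4 and 18.5. ZEB2 had a strong MV411-only region just outside its gene end (chr2:144382846-144383345), at percentiles 99.36, 98.6 and 99.03. IRF8, a monocyte and dendritic cell factor, had 7 and 0 with folds of 14.6, 11.5 and 11.1 at the strongest, and LMO2 had 8 and 1. The exceptions were ERG, with 8 and 10 regions and a turn to MV411 with strict peaks, and HOXA10, with 0 and 2. The strongest region of HOXA10 (chr7:27175129-27175628) had folds of 12.6, 17.4 and 18.2 in 22RV1. HOXA9 had 1 region of each kind, and its start was open in all 6 samples. 

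Among surface and effector genes KIT had 11 MV411-only and 8 22RV1-only regions, VSIG4, a macrophage complement receptor, had 10 and 1, and CD86, a costimulatory ligand, had 6 and 0. ITGB2, the chain shared by the leukocyte integrins, had 6 and 1, and CYBB, the catalytic subunit of the phagocyte oxidase, had 5 and 1. ITGB2 turned to 22RV1 with the 50000 strongest peaks. CSF1R, the receptor that macrophages need to survive, had 5 and 0. Its strongest region lay inside the gene (chr5:150081774-150082273) with folds of 22.4, 23.3 and 22.7 in MV411, and it had a peak in 3 of 3 MV411 samples with FHT-1015 and in none of 22RV1. At VSIG4 the strongest region had folds of 23.3, 27.0 and 20.3. At LYZ, the lysozyme gene, it had folds of 27.5, 25.5 and 24.5. The starts of CD33, CD86, PRTN3, FCGR1A and LILRB4 lay in MV411-only regions, and that of FLT3 was open in all 6 samples. The start of KIT lay in a 22RV1-only region. 

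Genes shared by white blood cells leaned to MV411 as well. CYTIP, a cytohesin-binding protein of leukocytes, had 16 MV411-only and 0 22RV1-only regions. The number of regions with a peak nearest to CYTIP was 21, 22 and 21 in MV411 and 1, 5 and 0 in 22RV1. By the rule, the 16 MV411-only regions are part of each MV411 count and of no 22RV1 count. INPP5D, the lipid phosphatase SHIP1, had 17 and 1, ARHGAP15, a Rac GTPase-activating protein, 25 and 6, and PTPRC, which encodes CD45, 13 and 4. The strongest PTPRC region lay 19.4 kb outside the gene (chr1:198776633-198777132), with folds of 29.2, 32.0 and 30.4. PTPRC also held a strong 22RV1-only region (chr1:198699365-198699864, inside the gene) with folds of 9.89, 22.4 and 15.7. CD44 had 12 and 2 and DOCK2, an activator of Rac in leukocytes, 10 and 2, and CD53, a tetraspanin, was the exception with 1 and 2. LAPTM5, a lysosomal protein of blood cells, had 6 and 0, and its strongest region lay inside the gene with folds of 17.9, 13.3 and 19.3. Of the 17 genes with a RefSeq promoter window 10 had a start in an MV411-only region, CYTIP, PTPRC, INPP5D and ARHGAP15 among them, beside 2.64% of all genes with a window. Of 21 myeloid factor genes with a window 3 had such a start. A start open in all 6 samples was held by 14 of them, beside 52.1% of all genes with a window. CIITA, the regulator of MHC class II genes, had 8 and 3, and its strongest region had folds of 15.9, 17.9 and 11.2. HLA-DPA1 and HLA-DPB1 had 2 and 0 each, and HLA-DRA, HLA-DMB and CD74, the invariant chain, had 1 and 0 each. HLA-DPA1 had 0 and 1 with the 50000 strongest peaks.

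**Figure D4:**
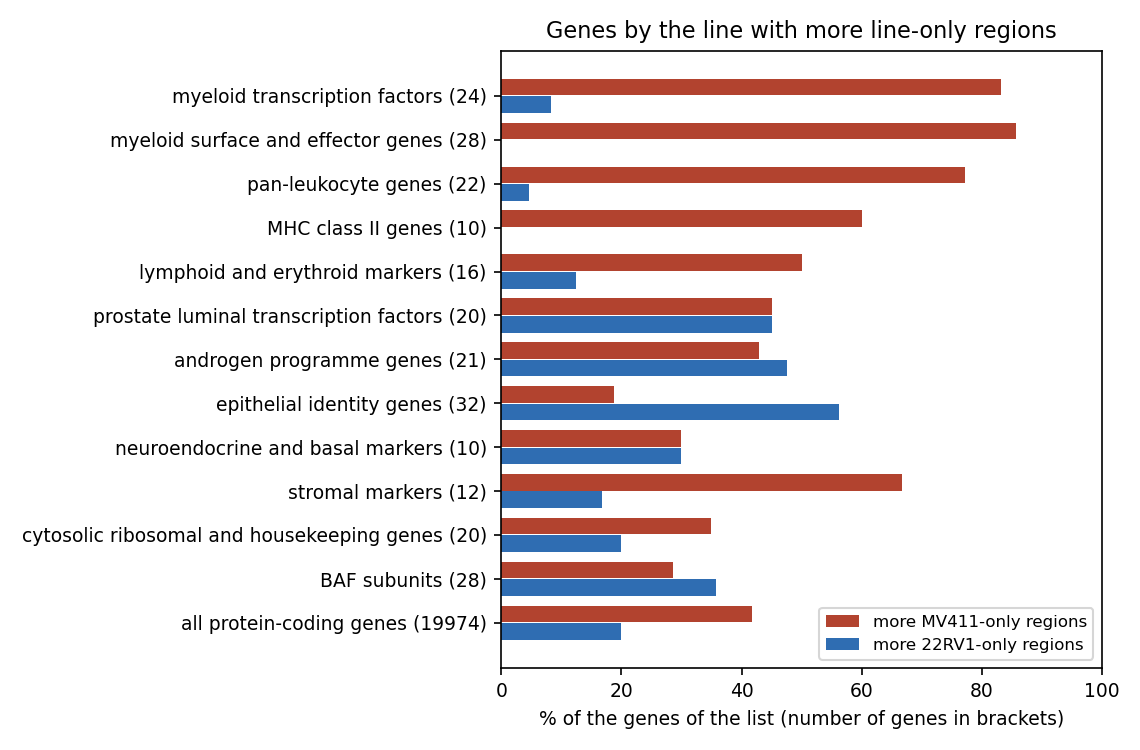
Percent of the genes of each list with more MV411-only than 22RV1-only regions (red) or the reverse (blue), with the number of genes in brackets. The 2 myeloid lists, genes shared by white blood cells and MHC class II genes stand at 60 to 85.7% MV411-sided. Lymphoid and erythroid markers stand at 50% and stromal markers at 66.7%, beside 41.8% of all genes. Epithelial identity genes stand at 56.2% 22RV1-sided, beside 19.9% of all genes.

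The epithelial genes leaned to 22RV1. Of 32 epithelial identity genes 18 (56.2%) were 22RV1-sided and 6 (18.8%) MV411-sided, with a median difference of -1 regions a gene against 0 over all genes. ELF3, an epithelial ETS factor, had 0 MV411-only and 5 22RV1-only regions. Its start (chr1:202010272-202010771) was 22RV1-only with folds of 13.2, 13 and 16.6. The number of regions with a peak nearest to ELF3 was 3, 2 and 3 in MV411 and 12, 10 and 10 in 22RV1. KRT19, a keratin of simple epithelia, had 0 and 5, with 1, 1 and 1 regions in MV411 and 9, 7 and 10 in 22RV1. DSP, the desmosomal plaque protein desmoplakin, had 1 and 7, KRT8 1 and 4, CLDN4 1 and 3 and CDH1, E-cadherin, 2 and 3. CLDN7, a tight junction claudin, had 0 and 3, and no MV411 sample had any peak nearest to it. Starts of ELF3, MARVELD2, OCLN, DSP, CLDN4, SPINT1 and CLDN7 lay in 22RV1-only regions, 7 of the 15 genes with a promoter window, beside 7.62% of all such genes, and 0 had a start in an MV411-only region. At CDH1 the gene end (chr16:68736960-68737459) was 22RV1-only, with folds of 10.4, 14.9 and 16.3. The other sided genes, 6 in number, went the opposite way. Among them EPCAM had 4 MV411-only and 2 22RV1-only regions, ESRP1 4 and 3, ST14 7 and 3, SPINT2 2 and 0 and MUC1 1 and 0. ESRP1 and ST14 turned to 22RV1 with the 50000 strongest peaks. The gene ends of EPCAM and ESRP1 were nonetheless 22RV1-only, with folds of 4.70, 10.7 and 5.22 and of 10.1, 10.5 and 10.2. With strict peaks 12 epithelial genes were 22RV1-sided and 7 MV411-sided, with the 50000 strongest 18 and 3. At a common background, with its stricter cutoff, they were 11 and 7.

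The prostate lists held as many or nearly as many MV411-sided as 22RV1-sided genes, with a share of 22RV1-sided genes above that of all genes. Few of their genes had no line-only region: 1 of 20 luminal factors and 0 of 21 androgen programme genes, against 6096 of all 19974 genes. Of 20 luminal prostate transcription factor genes 9 (45%) were 22RV1-sided and 9 MV411-sided, beside 19.9% and 41.8% of all genes. With strict peaks they were 3 (15%) and 13 (65%), beside 11.4% and 43.5%. Of the 13 genes with a promoter window 6 had a start in a 22RV1-only region and 0 in an MV411-only region, beside 7.62% and 2.64% of all such genes. The 22RV1-sided genes were led by ERG and GRHL2, with 4 MV411-only and 10 22RV1-only regions at GRHL2, whose gene end was 22RV1-only with folds of 6.71, 14.3 and 12.2. ERG turned to 5 MV411-only and 3 22RV1-only regions with strict peaks. ERG is also on the myeloid factor list and ELF3 on the epithelial list, so each counts in both of its lists. FOXP1 had 23 MV411-only and 14 22RV1-only regions, NCOA2, a steroid receptor coactivator, 22 and 11, and ETV1 12 and 5. FOXP1 turned to 4 and 6 with the 50000 strongest peaks. Further MV411-sided genes were TFAP2A, GATA3, KLF5, HNF4G and FOXA1. SPDEF, a prostate-derived ETS factor, had 0 and 2, with folds of 3.55, 4.55 and 5.36 at the stronger, and CREB3L4 had 0 and 1.

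Of 21 genes of the androgen programme 10 (47.6%) were 22RV1-sided and 9 (42.9%) MV411-sided, beside 19.9% and 41.8% of all genes. With strict peaks 8 (38.1%) were 22RV1-sided, beside 11.4% of all genes. The kallikrein genes had 22RV1-only regions and no MV411-only region. KLK2, a prostate protease, had 3, and its start (chr19:50872971-50873470) had folds of 5.88, 7.65 and 9.54 in 22RV1. KLK3, which encodes prostate-specific antigen, had 2, with folds of 6.64, 7.6 and 9.66 at a region 3.05 kb outside the gene (chr19:50851618-50852117). The number of regions nearest to KLK3 was 0, 0 and 1 in MV411 and 5, 4 and 3 in 22RV1. ZBTB16, a zinc finger factor induced by androgen, had 5 MV411-only and 14 22RV1-only regions, and its strongest 22RV1-only region (chr11:114179145-114179644) had folds of 17.1, 17.9 and 20.3. FOLH1, prostate-specific membrane antigen, had 4 and 10, with folds of 7.86, 13.9 and 14.7 near its gene end. PMEPA1 had 1 and 6 and STEAP1 1 and 4. TMPRSS2, a protease gene under androgen control, had 2 and 4, and its gene end (chr21:41507904-41508403) had folds of 4.64, 9.65 and 11.5. With strict peaks TMPRSS2 had 1 and 0. MV411-sided members were TMEFF2 with 14 and 2, NDRG1 with 13 and 11, ABCC4 with 13 and 4, and ACP3, FKBP5, SLC45A3, STEAP4, TRPM8 and UGT2B17.

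Lists of other cell types were read the same way. Of 16 lymphoid and erythroid markers 8 were MV411-sided and 2 22RV1-sided, and the starts of the B-cell factors EBF1 and PAX5 lay in MV411-only regions. Of 10 neuroendocrine and basal markers 3 were MV411-sided and 3 22RV1-sided. Of 12 stromal markers 8 (66.7%) were MV411-sided and 2 22RV1-sided, beside 41.8% and 19.9% of all genes. Of 20 housekeeping genes 7 and 4 were sided, and 9 had no line-only region. Of the 17 with a promoter window 14 had a start open in all 6 samples, beside 52.1% of all such genes. Of 28 BAF subunit genes 8 and 10 were sided, and SMARCA2 had 20 MV411-only and 2 22RV1-only regions. Whether other cells in the cultures had a part in any of these counts was not tested.

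Peaks nearest to the listed genes were also counted among the 10000 strongest of every list, so that all lists had the same length. Myeloid transcription factor genes had 18, 17 and 15 such peaks in MV411 and 9, 10 and 12 in 22RV1. FLI1 had 5, 4 and 4 of them in MV411 and none in 22RV1, and ZEB2 had 2, 2 and 2 and none. Other members went the opposite way: RUNX1 had 0 in each MV411 sample and 2 in each 22RV1 sample, BCL11A 0, 0 and 1 against 2, 2 and 3, and HOXA10 0 against 1 in each. Myeloid surface genes had 6, 9 and 8 against 1, 1 and 1. Epithelial identity genes had 1, 1 and 2 in MV411 and 11, 11 and 11 in 22RV1, with 3, 3 and 2 of the latter at ELF3. These 3 lists did not overlap between the lines in the DMSO samples, and neither did they in the FHT-1015 samples, where MV411 gave 15 to 20, 4 to 5 and 2 peaks in the order of these lists and 22RV1 gave 7 to 8, 0 and 10 to 14 (n = 3 each). A share over all genes was not counted among these peaks, so the counts of a list stand without one. In the DMSO samples 31.1% to 32.5% of these peaks lay within 1 kb of a gene end in MV411 and 49.5% to 50% in 22RV1. The part of this in the counts was not tested. Lists of no lineage also did not overlap in the DMSO samples. Housekeeping genes had 7, 9 and 7 in MV411 and 10, 11 and 10 in 22RV1, and BAF subunit genes 12, 11 and 15 against 22, 20 and 24. With FHT-1015 the same lists gave 11 to 14 against 14 to 15 and 18 to 22 against 22 to 26. Genes shared by white blood cells had 14.7 ± 3.06 in MV411 and 8.67 ± 2.08 in 22RV1 with DMSO, and 8.67 ± 1.15 and 8.33 ± 2.08 with FHT-1015. MHC class II genes had 0 in each MV411 sample and 3, 1 and 1 in 22RV1, the reverse of their lean in line-only regions. In 22RV1 these were 1 peak at CD74 in each sample and 2 at CIITA in replicate 1, so the reverse rests on few peaks. Luminal prostate factors had 17.3 ± 1.53 and 17.3 ± 3.06, and androgen programme genes 21, 21 and 18 against 14, 15 and 15, higher in MV411. ACP3 and TRPM8 had such peaks in every MV411 sample and in no 22RV1 sample. Neuroendocrine and basal markers had 1 in each MV411 sample and 7 in each 22RV1 sample, and stromal markers 2, 1 and 1 against 8 in each. COL1A2, a collagen gene, held 2, 2 and 3 of the stromal peaks in 22RV1.

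**Figure D5:**
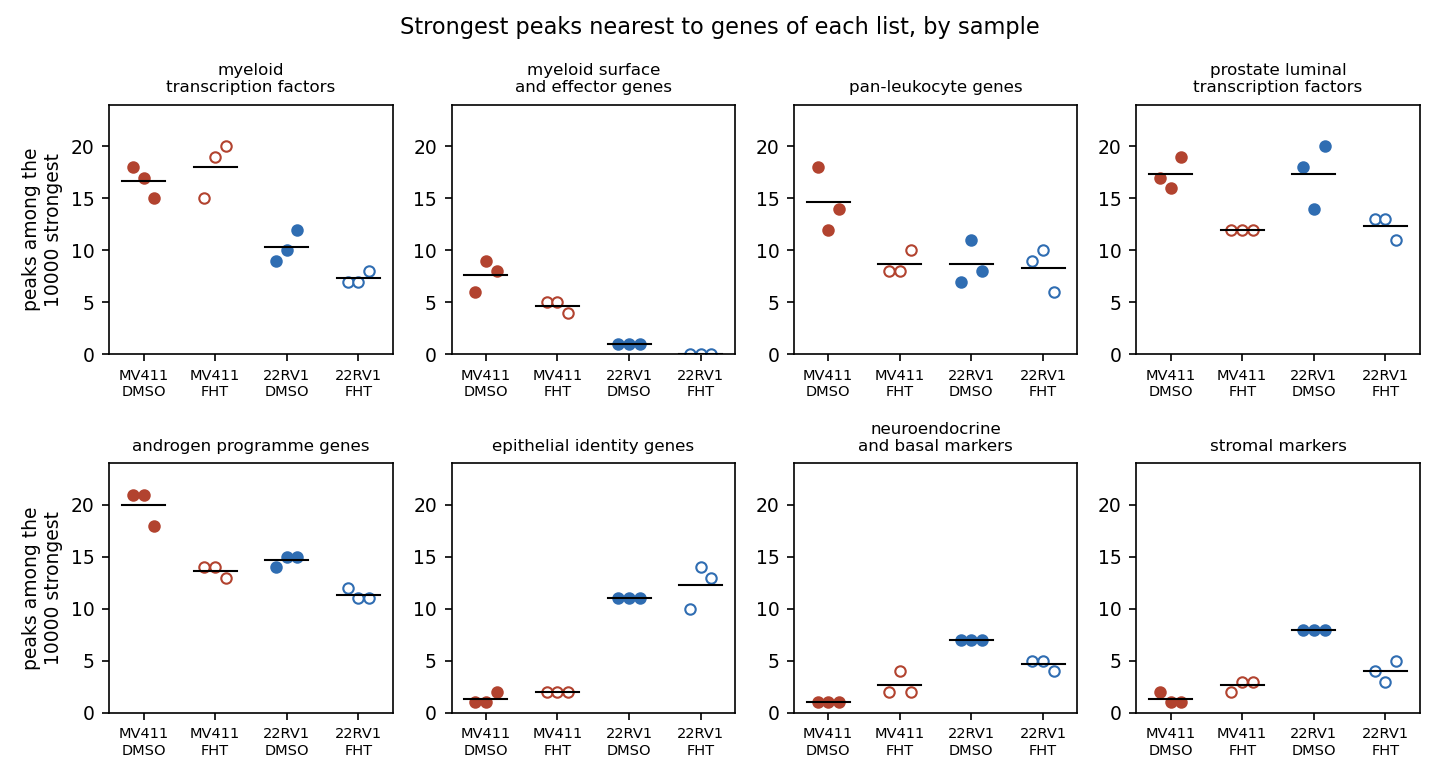
Number of peaks among the 10000 strongest of each sample whose nearest gene belongs to the list, for MV411 (red) and 22RV1 (blue) with DMSO (filled) or FHT-1015 (open). Each point is 1 sample and each bar the mean of 3. Myeloid transcription factors and surface genes are higher in MV411 and epithelial genes in 22RV1, while the luminal prostate factors have the same mean in both with DMSO.

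The genes with the most line-only regions were very long. The 12 leading genes of MV411 had a median length of 1820 kb and those of 22RV1 1210 kb, against 24.2 kb for all genes. In MV411 these included LRP1B with 62 MV411-only and 6 22RV1-only regions, CSMD1 with 57 and 40, ROBO2 with 55 and 15, CNTNAP2 with 53 and 61, FHIT and PDE4D with 51 each, DMD and PTPRD with 50 each, CELF2 with 48, GPC5 with 47 and MACROD2 with 46. The ratio differed widely among these genes: GPC5, a glypican, had 47 MV411-only and 2 22RV1-only regions and CELF2, an RNA-binding protein, 48 and 4. In 22RV1 the leading genes included CNTNAP2, CSMD1, SDK1 with 14 MV411-only and 39 22RV1-only regions, AUTS2 with 26 and 35, MACROD2, PTPRN2 with 28 and 32, PTPRD, ZFHX3 with 24 and 27, RYR2 with 9 and 26, KCNIP4 with 14 and 25 and NRG3 with 27 and 25. The lists shared 4 genes: CNTNAP2, CSMD1, MACROD2 and PTPRD. With strict peaks CNTNAP2, AUTS2, PTPRN2, ZFHX3 and RYR2 turned to more MV411-only regions, while SDK1 had 12 and 16. With the 50000 strongest peaks CNTNAP2 turned to MV411, and PTPRD and NRG3 to 22RV1.

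Counted per 100 kb of gene and flanks, a ranking chosen after the counts were seen, shorter genes led. HNMT, a histamine methyltransferase, had 20 MV411-only and 1 22RV1-only regions, CYTIP 16 and 0, CD28, a T-cell costimulatory receptor, 16 and 2, and CXCL8, a neutrophil chemokine, 14 and 1. In 22RV1 KCNK1, a potassium channel, had 1 and 14 and CHRM2, a muscarinic receptor, 1 and 14. By chromosome, MV411-only regions per 22RV1-only region ranged from 0.988 on chromosome 22 to 3.44 on X. They were 13.7% of all regions on X and 3.37% on chromosome 22, while 22RV1-only regions ranged from 3.41% (chromosome 22) to 5.37% (chromosome 7). Of all peaks of a sample, chromosome 7 held 5.88%, 5.86% and 5.98% in MV411 and 7.58%, 7.85% and 7.91% in 22RV1, and 4 of the 12 leading 22RV1 genes lie on it: SDK1, CNTNAP2, AUTS2 and PTPRN2. X held 3.12%, 3.0% and 3.13% in MV411 and 1.69%, 1.78% and 1.74% in 22RV1. The part of these shares in the counts of single genes was not tested, and copy number was not analysed here.

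The strongest single MV411-only regions farther than 1 kb from a gene end lay outside or inside genes. One lay 266 kb from AUTS2 (chr7:69331995-69332494), with folds of 38.4, 38.5 and 38.1, and was open in 4 of the 5 other lines. Another lay 226 kb from ZFHX4 with folds of 40.5, 40.7 and 40.5, and the next 83.1 kb from RBM46 (chr4:154911630-154912129) with 31.9, 33.3 and 29.5 and open in none of the other lines. A region inside PCBD2 had a high −log10 p of 813, 751 and 799 but folds of only 4.55, 4.32 and 4.59, and was open in all 5 other lines. The region inside GCA is the one at its internal start, given above. At gene ends they lay at SUGT1, SLCO4C1, RGS1, TRIM61 and KLKB1, and those of RGS1, TRIM61 and KLKB1 were open in none of the other lines. In 22RV1 the strongest region lay 4.46 kb outside CFAP45 (chr1:159867656-159868155), with folds of 33.9, 35.8 and 37.7, and was open in none of the other lines. The strongest at gene ends lay at CAPN13, BRINP2, TRPV6, TAFA4 and ARHGEF35, and those farther away were nearest to NRXN3, OR2A1, ZNF716 and MYT1L. All 20 of these regions but that of SUGT1, which had a peak in 1 of 3, had a peak in all 3 FHT-1015 samples of their own line.

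Among 22132 promoter windows of 300 bases, which covered 15812 of the genes, the start lay in an MV411-only region for 445 and in a 22RV1-only region for 1329. The median GC content was 51.0% in the former, 64.3% in the latter, 66.7% in the 9369 open in all 6 samples and 62.3% over all. The PU.1 core GAGGAA stood in 48.8% of MV411-only promoters, 23.6% of 22RV1-only promoters and 27.9% of all. The RUNX core TGTGGT stood in 27.0%, 9.26% and 11.3%, and the C/EBP core TTGCNNAA in 16.4%, 8.05% and 8.69%. Cores of other factors were also more frequent in MV411-only promoters: the forkhead core TNTTTAC in 12.4%, 7.52% and 8.54%, the GATA core AGATAA in 13.3%, 7.37% and 7.88%, and the AP-1 core TGANTCA in 14.2%, 6.02% and 6.15%. The grainyhead core AACNNGTT stood in 5.17%, 2.63% and 3.22% and the HOXB13 core CAATAAA in 4.49%, 2.71% and 2.91%, so the forkhead, grainyhead and HOXB13 cores were each less frequent in 22RV1-only promoters than over all. The GC-rich ETS core CCGGAA, which contains CG, stood in 11.0% of MV411-only, 13.4% of 22RV1-only, 34.1% of shared and 21.2% of all promoters. All cores were sought on both strands and could overlap each other, and the part of base composition in these shares was not tested.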

How the data were processed

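Every sample came with its own narrowPeak list, on hg38 per the submitters' processing notes, which name Bowtie2, Picard, MACS2, limma and HOMER without versions or roles. Per the labels' protocols, ATAC-seq libraries went through bead selection at both ends of the size range. A peak's fold is the deposited ratio of pileup to background, in the form given above. Its p-value and q-value were deposited by the authors as −log10, and the deposited score was not used. Whether reads were shifted for the transposase is not recorded in the sources used here. The lowest −log10 p in a list was 2.0 or 2.01 and the narrowest interval 150 bp, so weak peaks are included. Peak values were used only within their own list.

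A region is a window of 500 bp centred on a summit (chromosomes 1 to 22, X), chosen without overlap from the highest percentile of −log10 p down, and a sample was counted as open there with an overlap of 100 bp or more. Genes were the 19974 protein-coding genes of RefSeq GRCh38.p14, whose table gives ends but no strand, so distances are to either end of a gene. Promoter windows covered 79.2% of them. Pileups were recovered as whole numbers, to within 0.001 of the deposited −log10 p, for 98.605% to 99.998% of peaks. The steps were tested on simulated data. Groups of 3 and 3 samples were compared by exact permutation tests, whose smallest p is 0.1. The labels call the replicates biological without saying how cultures were separated, so a p-value measures the spread between these samples only. Alternatives were strict peaks, equal list lengths, other overlaps, regions over all 42 lists, a common background and leaving out each sample. For the common background, pileups were drawn down to 0.2 and peaks with −log10 p at 5 or above were kept.

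The members, lists, motifs and the rule for named genes were chosen with earlier results of these data known. Named were SPI1 and FOXA1, the 12 genes with the most line-only regions of each line, the genes at the 5 strongest regions near and the 5 far from gene ends, up to 6 leading genes of each list and every gene on its opposite side. Genes outside this rule (such as CLDN7, COL1A2, EBF1, FLT3, HOXA9, HOXB13, IRF8, KLK2, KLK3, LAPTM5, LMO2, LYZ, PAX5, SMARCA2, SPDEF, TMPRSS2, ZEB2 and those given for a start region or for density) were named after their values were seen. Some genes that the rule names are not reported here, though counts over lists include them. Python 3.11.15, numpy 2.4.6, pandas 2.3.3, scipy 1.17.1, numba 0.67.0 and matplotlib 3.10.9 were used.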

Additional observations from a re-analysis of the deposited data

How the results depend on the processing

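Depth is unknown, and the counts moved with the length of the lists. With strict peaks, 22RV1-only regions numbered 16203. With strict peaks in 3 of 3 samples and no deposited peak in the other line there were 38041 MV411-only and 13017 22RV1-only regions. With an overlap of at least 250 bp there were 35187 and 13808, and with the 50000 strongest peaks 22011 and 16309. At a common background, an alternative chosen after seeing the data, there were 39330 and 8538. That alternative also kept only peaks with −log10 p at 5 or above. Leaving out 1 sample gave 65067 to 75560 MV411-only and 34892 to 58433 22RV1-only regions, and the share of MV411-only regions among both, 64.7% with all samples, was 52.7% without 22RV1 replicate 3. MV411-sided myeloid factors fell to 12 with the 50000 strongest peaks, and 22RV1-sided epithelial genes to 11 at a common background. The log2 difference in strict peaks turned to -0.113 at q below 0.05 and -0.382 with all peaks, and was 0.635 to 0.857 without 1 sample; the gene-end difference was -18.5 to -17.8. The cause of these changes was not tested.

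The difference of MV411-only minus 22RV1-only regions changed sign with strict peaks for AUTS2 (12), BRINP2 (2), CNTNAP2 (27), ERG (2), PTPRN2 (8), RYR2 (3) and ZFHX3 (2). With the 50000 strongest peaks it did so for BRINP2 (1), CFAP45 (-4), CNTNAP2 (2), ESRP1 (-1), FOXP1 (-2), HLA-DPA1 (-1), ITGB2 (-1), NRG3 (-1), OR2A1 (-1), PTPRD (-1) and ST14 (-1).

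Whether replicate numbers pair the samples is unknown, since the labels do not say. Over regions open in all 6 samples, deviations of peak percentiles from the line mean correlated at -0.00833, -0.0108 and -0.0221 between same-numbered samples. Such values cannot show that handling was not shared. In the replicate block (exact sign-flip test) the differences stayed 0.742 and -18.1, with p = 0.25, the smallest it allows.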
